A study of Homo sapiens with 2 samples.

Results

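The squamous lineage transcription factors are 10 genes that give stratified epithelia their identity: TP63, SOX2, PITX1, BNC1, TRIM29, GRHL2, GRHL3, KLF4, KLF5 and OVOL1. They were followed through every array probe whose platform annotation names 1 of these genes and no other. That gave 13 probes of 31741, with 2 probes each for TP63, GRHL3 and OVOL1 and 1 probe for each of the other 7 genes. Probes were matched to the genes by name alone. TRIM29 is a tripartite motif protein without a classical DNA-binding domain, and it is kept because the list names it. The cells were SAS, an established human cell line from a squamous carcinoma of the tongue. They carried a short hairpin RNA against ATMIN (shATMIN) in 1 sample and were a control that the labels call neo in the other. The labels describe puromycin-resistant clones at 3 µg/mL after plasmid transfection, in the same words for both samples. The sources used here do not state how many clones were pooled or what the neo control carried.

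p63, the product of TP63, is a p53 family protein that keeps basal keratinocytes in their lineage. The gene has alternative starts and alternative ends, so its transcripts encode long and N-terminally truncated forms with different tails, and a probe may match only some of them. SOX2 is co-amplified with TP63 on the long arm of chromosome 3 in many squamous tumours. PITX1, BNC1 and TRIM29 mark the basal or proliferating squamous cell. KLF5 is active in dividing epithelium, while KLF4, GRHL3 and OVOL1 act as cells leave the basal layer. GRHL2 holds the epithelial barrier and its junction genes in place.

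Each sample gave 1 intensity per probe, and the labels list 2 arrays per sample. With 1 sample per group there is no replicate check, no test was possible, and the number of arrays limits the precision. The median intensity was 106 in the shATMIN sample and 109 in the neo control, and the upper quartile was 535 in the shATMIN sample and 629 in the neo control. Differences below are shATMIN minus neo control on the log2(intensity + 1) scale, as deposited, and a difference of 2-fold was the rule of size. A probe was compared where its mean log2 level reached the 40th percentile of all probes, an intensity of about 58.9. Over 12421 compared genes the median difference was -0.16 and 70.7% were lower, so single differences carry that shift. ATMIN itself read 61.5 in the shATMIN sample and 105 in the neo control, a difference of -0.76, and its other, uncompared probe read 26.5 in shATMIN cells and 51.5 in neo control cells.

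One of the 10 factors, TP63, stood out in size, and it did so on 1 of its 2 probes. Its brighter probe was 2.29-fold lower in the shATMIN sample, while the dimmer one read almost alike in both samples. BNC1 came next, 1.43-fold lower. PITX1, KLF5 and TRIM29 were lower by amounts close to the shift of all genes, and OVOL1 and GRHL3 were slightly higher. SOX2, KLF4 and GRHL2 read too dim in both samples to be compared. Thus 1 of 13 member probes was at least 2-fold lower, where 1.18% of all probes that name 1 gene were, and 0 were at least 2-fold higher, where 1.06% were. At 1.5-fold the count of member probes was also 1 lower and 0 higher, where 8.76% and 3.74% of all such probes were lower and higher.

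**Figure D1:**
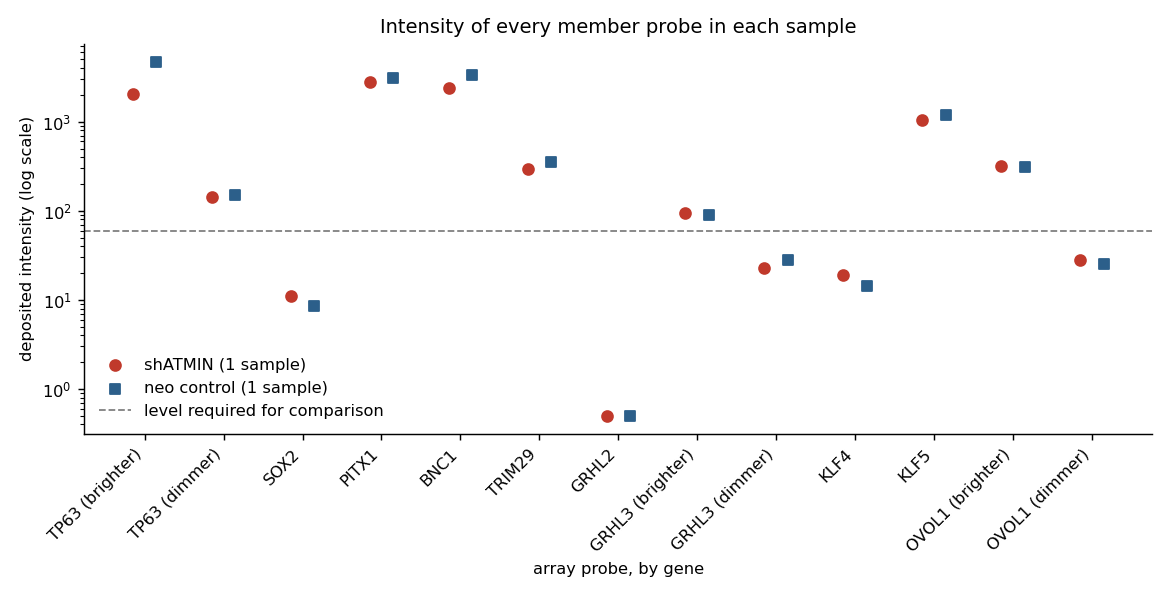
Deposited intensity on a log axis of each of the 13 member probes in the shATMIN sample (circles) and the neo control (squares), 1 sample each, with the level required for comparison as a dashed line. The brighter TP63 probe shows the widest gap among probes above the line, at 2060 in shATMIN cells and 4717 in neo control cells, and 5 probes lie below the line in both samples.

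TP63 was measured by the probes PH_hs_0008302 and PH_hs_0045883. The first read 2060 in shATMIN cells and 4717 in neo control cells, a difference of -1.19. The second read 144 in shATMIN cells and 150 in neo control cells, a difference of -0.06. The first probe was thus 2.29-fold lower in the shATMIN sample and the second 1.04-fold lower. With 1 sample per group, no replicate spread stands beside either value. As deposited, the difference between the probes was 1.14 on the log2 scale. Of 2639 genes with 2 compared probes, 78 (2.96%) disagreed by at least as much, and the median disagreement was 0.26. The probes lie at different levels. With the trend of the difference on level taken out they stood at -0.96 and 0.02, and after quantile normalization at -0.94 and 0.02. The sources used here do not place the probes on the TP63 transcript, so neither can be assigned to the long or the truncated forms.

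Among the 12421 compared genes, each taken by its brightest probe, 40 (0.32%) stood lower than TP63. At the 2-fold rule 1.34% of compared genes were lower and 0.459% higher. The call rests on the scaling. TP63 stood at -1.16 with the samples scaled to their medians, a setting in which 1.03% of compared genes passed the 2-fold rule on the lower side. With scaling to the 75th percentile it stood at -0.96, quantile normalization gave -0.94, and taking out the trend of the difference on level gave -0.96. In these last 3 settings it was short of 2-fold, which 0.29%, 0.378% and 0.403% of compared genes reached on the lower side, and 41, 68 and 62 genes stood lower than TP63. Its place near the bottom of all genes thus moved little while its size crossed the rule.

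**Figure D2:**
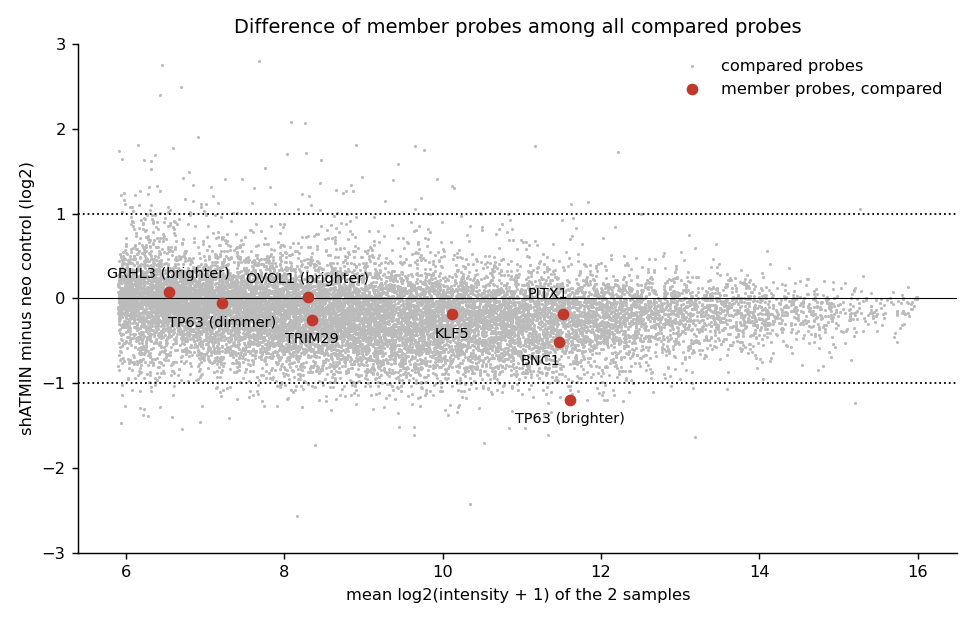
Difference between shATMIN and neo control (log2) against the mean log2(intensity + 1) of the 2 samples for all compared probes (grey) and the 8 compared member probes (red, named), with dotted lines at 2-fold. The brighter TP63 probe lies below the lower line at -1.19, BNC1 lies at -0.51, and the other 6 lie between -0.25 and 0.07. Outside the plotted range were 3 grey probes.

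The RefSeq promoter table holds 1 start for TP63, so the gene's other starts are not covered. The 250 bases before this start are shown because TP63 gave the only member difference past 2-fold. The window is chr3:189631139-189631388 of GRCh38.p14, plus strand, printed 5′ to 3′, with capitals for the CCAAT box searched on both strands (CCAAT or ATTGG).
TP63: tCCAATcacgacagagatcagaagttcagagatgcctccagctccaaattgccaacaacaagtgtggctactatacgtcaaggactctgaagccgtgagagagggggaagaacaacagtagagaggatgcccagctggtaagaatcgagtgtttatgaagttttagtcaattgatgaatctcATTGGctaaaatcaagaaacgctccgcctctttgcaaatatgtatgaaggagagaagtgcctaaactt
It holds 2 such matches and 32.0% of 35116 windows of this length hold at least 1. None of the letters searched for the factors themselves occurs in it, on either strand. These were CACCC for KLF factors, ACAANG for SOX factors, AACNGGTT for grainyhead factors, TAATCC for PITX factors, CCGTTA for OVO factors, and the p53 family half-site. No window of GRHL2, TRIM29 or OVOL1 was searched, so the counts do not cover these genes. For the other 7 members 10 windows were searched. Of these, 5 held CACCC (GRHL3 and KLF5 at both of their starts, and PITX1), where 54.7% of all windows did, and 4 held ACAANG (both GRHL3 starts, SOX2 and 1 KLF5 start), where 30.9% did. The p53 family half-site occurred in 1 window of GRHL3 (5.57% of all windows). Grainyhead, PITX and OVO letters occurred in 0 of the 10, where 1.49%, 5.62% and 2.45% of all windows held them. A match describes letters only, and the arrays do not show which start was used.

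Of BNC1, TRIM29 and PITX1, the members that mark the basal or proliferating squamous cell, BNC1 was furthest from the shift of all genes. BNC1 encodes basonuclin, a zinc finger protein of proliferating keratinocytes, and its probe PH_hs_0003989 read 2365 in shATMIN cells and 3378 in neo control cells. The difference was -0.51, and 16.4% of compared genes stood lower. TRIM29, a tripartite motif protein of basal cells, read 297 in shATMIN cells and 354 in neo control cells, a difference of -0.25 (PH_hs_0004705). PITX1, a homeodomain factor of oral and limb development, read 2756 in shATMIN cells and 3129 in neo control cells, a difference of -0.18 (PH_hs_0004789). For these genes 39.3% and 47.2% of compared genes stood lower, which places TRIM29 and PITX1 near the middle of all genes.

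KLF5, a zinc finger factor of dividing epithelial cells, read 1040 in shATMIN cells and 1183 in neo control cells, a difference of -0.19 (PH_hs_0031374). It too lay near the middle, with 46.8% of compared genes lower. Of the factors of cells leaving the basal layer, KLF4 was not compared. GRHL3, a grainyhead factor of the epidermal barrier, read 94.5 in shATMIN cells and 90.0 in neo control cells, a difference of 0.07 (PH_hs_0060158), while its dimmer, uncompared probe was lower in shATMIN cells. OVOL1, a zinc finger repressor of the progenitor state, read 316 in shATMIN cells and 313 in neo control cells, a difference of 0.01 (PH_hs_0049446). For these probes the samples differ by less than 1.1-fold, and 78.8% and 72.7% of compared genes stood lower than GRHL3 and OVOL1.

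The remaining 5 member probes lay below the level required for comparison, and the size of their differences cannot be read. SOX2 read 11.0 in shATMIN cells and 8.50 in neo control cells (PH_hs_0000096). KLF4 read 19.0 in shATMIN cells and 14.5 in neo control cells (PH_hs_0032978). GRHL2 read 0.499 in shATMIN cells and 0.501 in neo control cells (PH_hs_0024507), the equivalent of 1 unit on 1 of 2 readings. SOX2 and KLF4 were thus a few units apart and GRHL2 was at the bottom of the scale in both samples. The second GRHL3 probe, PH_hs_0029178, read 23.0 in shATMIN cells and 28.0 in neo control cells. The second OVOL1 probe, PH_hs_0005353, read 28.0 in shATMIN cells and 25.5 in neo control cells. A dim probe does not show that the transcript is missing, since the probe's own response is unknown.

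Over the 7 compared members the median difference was -0.19, with 5 lower and 2 higher, beside the median of -0.16 over all compared genes. The sign of the members' median turned with the scaling. It was 0.05 with scaling to the 75th percentile, 0.06 after quantile normalization and 0.06 with the level trend taken out, where the medians of all compared genes were 0.07, 0.002 and -0.002. Of the 8 compared member probes, 6 were lower and 2 higher as deposited. With scaling to the 75th percentile, after quantile normalization or after removal of the level trend, 3 were lower and 5 higher. PITX1, KLF5 and the dimmer TP63 probe passed to the higher side in each of these settings, at values from 0.02 to 0.17. TP63 on its brighter probe, BNC1 and TRIM29 were lower in all 5 scalings, with TRIM29 as close to 0 as -0.02. BNC1 stood between -0.27 and -0.28 in those 3 settings.

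**Figure D3:**
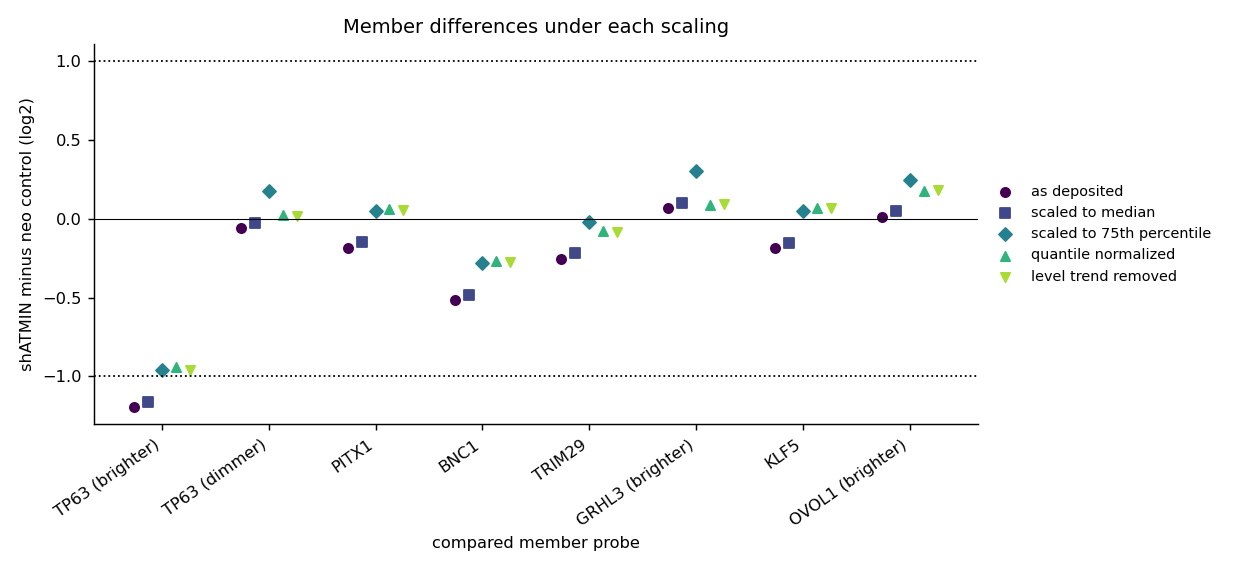
Difference between shATMIN and neo control (log2) of the 8 compared member probes under 5 scalings, with dotted lines at 2-fold. The brighter TP63 probe stays between -0.94 and -1.19 and BNC1 between -0.27 and -0.51, while PITX1, KLF5 and the dimmer TP63 probe lie on both sides of 0.

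Each low intensity has the form of an average of 2 integer readings that were first multiplied by factors just above and just below 1, and the readings behind intensities under 1000 were recovered on that basis. The sources used here do not state whether they are the 2 arrays of each sample. For the dimmer TP63 probe the readings were 135 and 154 in the shATMIN sample and 139 and 162 in the neo control, so they overlap. For OVOL1 they were 304 and 327 in the shATMIN sample and 299 and 326 in the neo control, again overlapping. For TRIM29 they were 295 and 299 in the shATMIN sample and 340 and 368 in the neo control, which lie apart. GRHL3 had readings of 92.8 and 96.2 in the shATMIN sample and 88.2 and 91.8 in the neo control, apart by less than the range within a sample. In all, 9 member probes had readings in both samples, and in 6 of them the samples did not overlap. That was also so for 59.6% of all such probes that name 1 gene. The brighter TP63 probe, BNC1, PITX1 and KLF5 read above 1000, where the readings have no unique solution. For compared probes from 300 to 1000 the SD of a reading was 0.15 in the shATMIN sample and 0.10 in the neo control on the log2 scale. From 100 to 300 the SD was 0.13 in the shATMIN sample and 0.14 in the neo control. Below 100 it was 0.28 in the shATMIN sample and 0.32 in the neo control. It is a technical spread, and variation among cultures or among clones is not part of it.

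**Figure D4:**
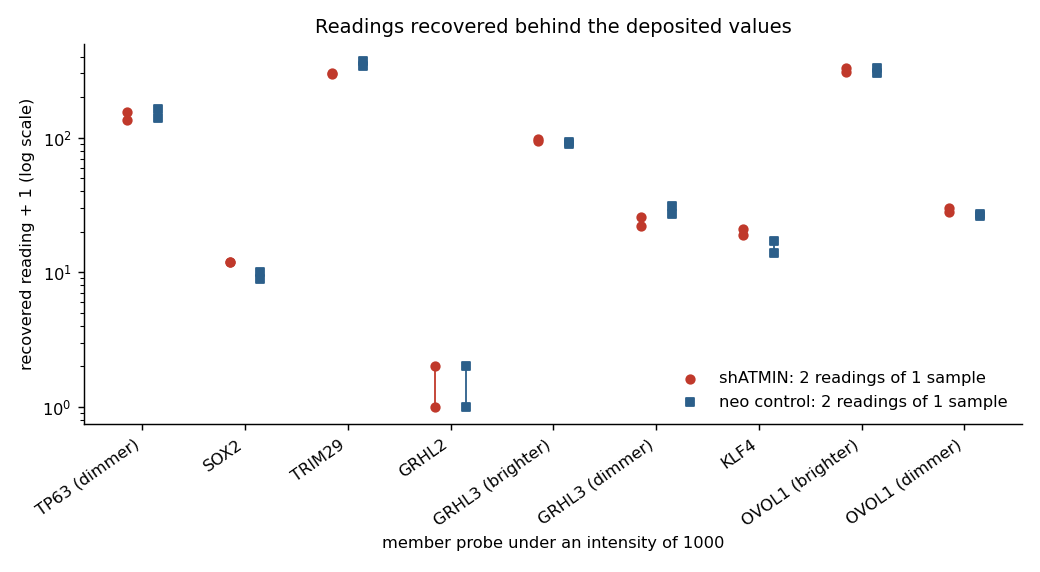
The 2 readings recovered behind the value of each of 9 member probes under an intensity of 1000, as reading + 1 on a log axis, for the shATMIN sample (circles) and the neo control (squares), joined by a line within a sample. The readings overlap between the samples for the dimmer TP63 probe, GRHL2 and the brighter OVOL1 probe.

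Of the compared genes within 5 protein-coding genes of TP63 on either side in the RefSeq gene order, 0 were at least 2-fold lower. P3H2, a collagen prolyl hydroxylase and the next protein-coding gene on one side, read 1773 in shATMIN cells and 1848 in neo control cells, a difference of -0.06. TPRG1, the neighbour on the other side, read 3.50 in both samples and was not compared. LPP, a LIM domain protein of cell adhesions and the gene beyond it, stood at -0.63 and -0.67 on its probes. CLDN1, a tight junction claudin on the side of P3H2, was higher at 0.31. Next to SOX2, ATP11B, a phospholipid flippase, stood at -1.06 and DNAJC19 at -0.01. Of 50 compared genes listed for the distal long arm of chromosome 3, 33 were lower and 17 higher, with a median of -0.17 against -0.16 for all compared genes. Over all compared genes 70.7% were lower. At least 2-fold lower were 4 of them: OPA1 at -1.18, ATP11B, ETV5 at -1.03 (0.18 on a second probe) and PRKCI, just past the rule, where 1.34% of all compared genes were. With the samples scaled to their medians 2 of these calls were left, OPA1 and ATP11B. Scaling to the 75th percentile, quantile normalization and removal of the level trend left 0, with OPA1 at -0.95 in each. TNIK was at least 2-fold higher, at 1.11, where 0.459% of all compared genes were. Its neo control value of 42.0 lay below the level required for comparison. TNIK stayed past 2-fold in all 5 scalings, in which 0.459% to 0.982% of compared genes were at least 2-fold higher.

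Targets of p63 in basal keratinocytes were mixed in direction. As deposited, 15 of 25 compared genes were lower and 10 higher, 0 passed 2-fold either way, and the median was -0.09. By comparison, 70.7% of all compared genes were lower. KRT14, a keratin of the basal layer, read 2555 in shATMIN cells and 1284 in neo control cells, a difference of 0.99. KRT15, another basal keratin, read 1104 in shATMIN cells and 758 in neo control cells, a difference of 0.54. The basal keratin gene KRT5 was also higher, at 0.28. ITGA3, an integrin subunit that binds laminin, read 1525 in shATMIN cells and 2909 in neo control cells, a difference of -0.93. FGFR2, a growth factor receptor, stood at -0.62, with -0.07 on its second probe. The list thus holds basal keratins that were higher, while its integrins went both ways. ITGB4 stood at 0.37, with -0.19 on its second probe, and ITGA6 at -0.47. With the level trend taken out, 9 were lower and 16 higher. The median turned to 0.14 with scaling to the 75th percentile, 0.10 after quantile normalization and 0.09 without the level trend. KRT14 passed 2-fold higher under each scaling other than the deposited one, at 1.03 with the median, 1.23 with the 75th percentile, 1.24 with quantiles and 1.24 without the trend. In those settings 0.531%, 0.982%, 0.773% and 0.765% of compared genes were at least 2-fold higher.

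Targets of grainyhead factors in the epithelial barrier were mostly lower, with 16 of 18 compared genes lower, 0 past 2-fold and a median of -0.35. The share lower was 70.7% over all compared genes, with a median of -0.16. The protease inhibitor gene SPINT1 read 75.5 in shATMIN cells and 135 in neo control cells, a difference of -0.84. ST14, the membrane protease matriptase that SPINT1 inhibits, read 192 in shATMIN cells and 343 in neo control cells, a difference of -0.83. MAL2, a protein of apical transport, stood at -0.81. ESRP1, an epithelial splicing factor, stood at -0.68 on its brighter probe and -0.43 on the other. After removal of the level trend 14 of the 18 were lower and the median was -0.18, where 50.3% of all compared genes were lower and their median was -0.002.

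Late differentiation genes, on which KLF4, GRHL3 and OVOL1 act, had 6 of 12 compared members lower, 6 higher and a median of -0.01, which was above 0 in the other 4 scalings, from 0.02 to 0.22. PPL and EVPL, plakins of the cornified envelope, stood at -0.63 and -0.46, and GRHL1 at -0.27. LOR, also of the envelope, was at least 2-fold higher at 1.03, where 0.459% of all compared genes were. However, the readings behind it were 83.8 and 108 in the shATMIN sample and 2.00 and 90.8 in the neo control, and they overlap. Genes of the mesenchymal transition had 5 of 8 compared members higher and a median of 0.06, where 70.7% of all compared genes were lower. SNAI2, a repressor that basal keratinocytes also express, read 599 in shATMIN cells and 344 in neo control cells, a difference of 0.80. It passed 2-fold higher with scaling to the 75th percentile (1.03), after quantile normalization (1.01) and without the level trend (just past the rule). In those settings 0.982%, 0.773% and 0.765% of compared genes were at least 2-fold higher. VIM, the intermediate filament vimentin, stood at -0.49, SNAI1 at -0.16 and TWIST2 at -0.14. A dimmer compared probe of TCF4 stood at 1.02, and 1.06% of all probes that name 1 gene were at least 2-fold higher. That probe passed 2-fold in all 5 scalings. The brightest TCF4 probe stood at 0.09 and another compared one at 0.30.

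Other transcription factors of stratified epithelia had 18 of 23 compared members lower, 0 past 2-fold and a median of -0.27. Of all compared genes 70.7% were lower, 1.34% were at least 2-fold lower and 0.459% at least 2-fold higher. NR3C1, the glucocorticoid receptor, stood at -0.88 on its brightest probe, with -0.29 and 0.68 on others, so its probes disagreed in sign. SOX9 stood at -0.62 on its probe, KLF3 at -0.61, and ELF3, an epithelial ETS factor, at -0.60, with -0.09 and -0.04 on other ELF3 probes. After removal of the level trend 15 of the 23 were lower, with a median of -0.12. The KLF and SP family had 11 of 16 compared paralogs lower, 0 past 2-fold on their brightest probes and a median of -0.39. Dimmer compared probes passed 2-fold for KLF13, at 1.41, and SP3, at -1.13. The brightest probes of KLF13 and SP3 stood at -0.05 and -0.35. SP4 stood at -0.94, KLF12 at -0.80 with a shATMIN value of 44.5, and KLF11 at -0.76. Dimmer, uncompared probes gave 0.40 for SP4 and 0.30 for KLF11. The paralogs of the other members had 9 of 12 lower and a median of -0.26. TP73, of the p53 family, stood at -0.55, with -0.25 on a second compared probe, and OVOL2 at -0.52, while TRIM25 stood at 0.59. With the level trend taken out, 9 of 16 KLF and SP genes and 6 of 12 of the other paralogs were lower. In that setting 50.3% of all compared genes were lower. Some genes stand in more than 1 of these lists.

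**Figure D5:**
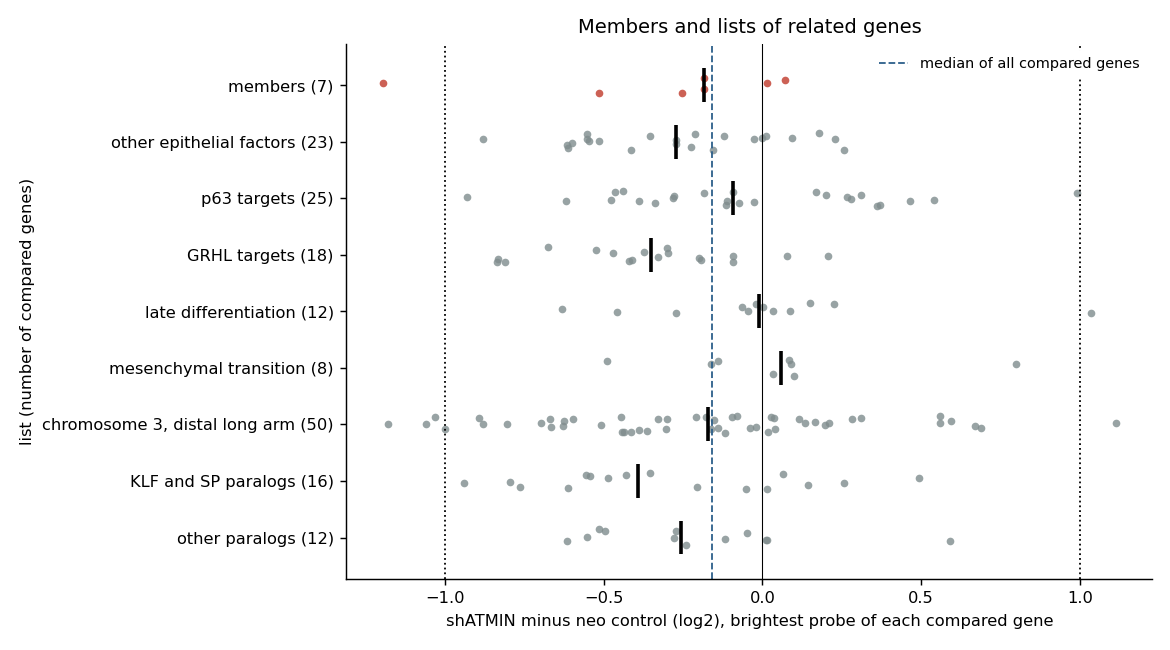
Difference between shATMIN and neo control (log2) of each compared gene, by its brightest probe, for the 7 compared members (red) and 8 lists of related genes (grey), with black bars at the medians, a dashed line at the median of all compared genes (-0.16) and dotted lines at 2-fold. TP63 lies left of the lower dotted line, and the medians of the lists run from -0.39 to 0.06.

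All 9 listed markers of squamous epithelium reached the level required for comparison. S100A2 reached the top of the scanner's range in each sample, and no difference can be read from it. Without S100A2 the summed intensity was 39328 in the shATMIN sample and 34918 in the neo control. Of the other 8 markers 6 were higher and 2 lower. KRT6A, a keratin of activated keratinocytes, stood just short of 2-fold at 1.00, and past it in the other 4 scalings. In those 4 scalings 0.531% to 0.982% of compared genes were at least 2-fold higher. The desmosomal cadherin gene DSC3 stood at 0.35, while PKP1, a desmosomal plaque protein, stood at -0.23 and SERPINB5, a serpin, at -0.12. Of the other cell types, fibroblast markers had 3 of 8 compared, with summed intensities of 1632 in the shATMIN sample and 1714 in the neo control, and COL3A1 read 2.00 in shATMIN cells and 2.50 in neo control cells. Leukocyte markers summed to 2812 in the shATMIN sample and 3164 in the neo control, and CD14 gave most of both sums. The defining leukocyte gene PTPRC, on the brighter of its probes, read 14.0 in shATMIN cells and 13.5 in neo control cells, well below the level required for comparison. Endothelial markers summed to 597 in the shATMIN sample and 609 in the neo control, with 2 compared markers lower (CDH5 at -0.60 and VWF at -0.17) and 2 higher (TEK at 0.40 and PECAM1 at 0.15). Simple epithelial markers summed to 14609 in the shATMIN sample and 19939 in the neo control, with KRT7 at -0.52. Neuroendocrine markers summed to 795 in the shATMIN sample and 640 in the neo control, and melanocyte markers to 1340 in the shATMIN sample and 1255 in the neo control. None of the markers of these cell types with an array probe read 0 in either sample. A value above 0 does not show expression, as many lay below the level required for comparison. Both samples were SAS cells, and a part of other cell types in the member differences was not tested. Fewer cells of a type cannot be told apart from less RNA per cell.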

How the data were processed

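Per the labels, total RNA of each sample was amplified, labelled with Cy5 and hybridised to 1-colour arrays. The deposited values are linear intensities, as read from the values, which run from -2.00 to 65511 with 41 probes below 0 in the shATMIN sample and from -1.002 to 65510 with 46 in the neo control. The sources used here do not state the scanner, the background correction or any normalization. No value column was unassigned. Values below 0 were set to 0, and log2(intensity + 1) was compared without scaling.

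The platform annotation names 1 gene for 24740 probes, several for 977 and none for 6024. Older symbols were updated through a RefSeq gene table (GRCh38.p14), which left the member probes the same. A gene was taken by its probe of highest mean level, if that probe was compared. Members and lists were chosen with earlier results of these data known. Named genes were every member and, of each list, the 4 compared non-members with the greatest absolute difference. Neighbours, PRKCI, KRT5, ITGB4, ITGA6, TCF4, KLF13, SP3, the markers and second probes were named after their values were seen. Readings were recovered under 1000 within a tolerance of 5e-05, and 99.7% of values in each sample were resolved. The calculations were tested on simulated data. The tools were statsmodels 0.14.6 (loess with a span of 0.3), matplotlib 3.10.9, NumPy 2.4.6 and pandas 2.3.3 under Python 3.11.15.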

Additional observations from a re-analysis of the deposited data

How the results depend on the processing

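The count of member probes at least 2-fold lower, 1 as deposited, was 0 with scaling to the 75th percentile, 0 after quantile normalization and 0 after removal of the level trend. Those settings put the median of all compared genes at 0.07, 0.002 and -0.002, against -0.16 as deposited. The count was 1 with scaling to the median, pseudocounts of 16 and 50, the 1.5-fold rule, compared probes only and updated symbols. The count of probes at least 2-fold higher was 0 under every one of these 9 alternatives. The median of the compared members, each probe's difference and the list medians moved by at most 0.34, the SD between probes of 1 gene, but the members' median of -0.19 turned to 0.05, 0.06 and 0.06 in those 3 settings. No paired analysis was possible because each group has 1 sample, so leaving out a sample was not possible either. Signal near background limits SOX2, KLF4, GRHL2 and the second probes of GRHL3 and OVOL1.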
